A study of Caenorhabditis elegans with 83 samples.

Results

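Sites that carried the chromatin factors HCF-1 and HDA-1 but no peak of their partner SET-26 were examined in adult Caenorhabditis elegans without a germline. They were chosen from 3 lists of CUT&RUN peaks (the intervals where DNA cut free beside a bound protein was enriched), for HCF-1, HDA-1 and SET-26 in glp-1(e2141) worms fed OP50 bacteria, each called against antibody background, that is the FLAG or HA antibody in glp-1(e2141) worms with no tagged protein. A site was an HCF-1 peak on autosomes I to V that overlapped an HDA-1 peak by 1 bp or more and no SET-26 peak. This gave 1462 of 8791 autosomal HCF-1 peaks, or 16.6% (15.9 to 17.4%, exact 95% interval), from a list of 9961 HCF-1 peaks in all. Of the remaining autosomal HCF-1 peaks, 5793 (65.9%) overlapped both SET-26 and HDA-1 and are called three-factor sites below, 1039 (11.8%) overlapped SET-26 and no HDA-1 peak, and 497 (5.65%) overlapped neither.

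The series profiled the 3 factors in day 1 adults grown at 25 °C, as 83 samples in 41 groups, 40 of 2 samples and 1 of 3, from which 22 peak lists were used. All tags were CRISPR insertions at the endogenous gene: rwIs33[hcf-1::gfp::3xflag] for HCF-1, rwIs27[set-26::ha] for SET-26 and syb5185[hda-1::gfp::ha] for HDA-1. HCF-1 was profiled in set-26(tm2467) mutants and in their control in 3 settings: glp-1(e2141), glp-1 RNAi (which also removes the germline) and L4440 (the empty RNAi vector, in whole worms with a germline). HDA-1 was profiled in set-26(tm2467) and hcf-1(pk924) mutants and in their control with glp-1 RNAi and with L4440, and SET-26 in hcf-1(pk924) mutants and control in the same pair of settings. In these lists the factor was called against histone H3 profiled in the same genotype. Wild type N2 worms on OP50 with each tag were called against antibody background. Whole animals were used, so the signal of different cell types cannot be separated, and the hcf-1 and set-26 mutants carry their mutation in every tissue.

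HCF-1 is a conserved adaptor protein that brings histone-modifying enzymes to transcription factors at promoters. SET-26 is a chromatin factor that reads the active mark H3K4me3, and worms without it, like hcf-1 mutants, are known to live longer. HDA-1 removes acetyl groups from histones and is the worm counterpart of mammalian HDAC1 and HDAC2 and a subunit of NuRD and related complexes.

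The peak lists were called by the authors on merged replicates, so each list gives 1 value per site and no test between replicates could be made. Intervals below are exact Clopper-Pearson intervals for shares and Newcombe intervals for differences of shares, at 95%, and cover counting error only. Merged libraries held 27.6 to 71.5 M factor tags and 27.1 to 85.6 M control tags, and the lists held 1267 to 13422 unique peaks. As a check of the labels, promoters of 18 germline genes were counted. In lists against H3, HCF-1 peaks lay at 6 of them in glp-1(e2141), at 16 with glp-1 RNAi and at 18 on L4440. Against antibody background they lay at 3 in glp-1(e2141) worms, and at 18 in the wild type list. In set-26 mutants HCF-1 peaks against H3 lay at 0 in glp-1(e2141), at 1 with glp-1 RNAi and at 17 on L4440. The glp-1 RNAi controls of SET-26 and HDA-1 had 14 and 3. The HCF-1 control list with glp-1 RNAi thus held nearly the full set of these germline promoters, and its set-26 mutant list did not. The part of this in the results below was not tested.

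Reference sequence reaching 75 bases to either side of the strongest HCF-1 summit is given for 9 sites to show the DNA at which the results below were measured (RefSeq, WBcel235, forward strand, 5′ to 3′). Capitals mark GATAA or its complement TTATC, the core letters bound by GATA factors of the intestine, and GAANNTTC, an inverted pair of heat shock elements. The first is a repeat of the 5S rRNA and SL1 gene array and stands for the sites with the highest HCF-1 significance. It occurs in 6 identical copies in the reference.
5S rRNA and SL1 repeat, chrV:17130187-17130337: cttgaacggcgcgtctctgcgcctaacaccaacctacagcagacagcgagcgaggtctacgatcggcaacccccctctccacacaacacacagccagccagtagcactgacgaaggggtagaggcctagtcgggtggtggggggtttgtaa
The next 6 had the most significant HCF-1 peaks among sites at which the HCF-1 peak of the control was matched by no peak in the set-26 mutant in both germline-less settings.
zip-5, chrV:13262987-13263137: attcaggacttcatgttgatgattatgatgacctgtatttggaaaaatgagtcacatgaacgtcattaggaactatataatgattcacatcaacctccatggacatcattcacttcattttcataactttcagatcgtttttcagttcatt
F49C12.6, chrIV:9311309-9311459: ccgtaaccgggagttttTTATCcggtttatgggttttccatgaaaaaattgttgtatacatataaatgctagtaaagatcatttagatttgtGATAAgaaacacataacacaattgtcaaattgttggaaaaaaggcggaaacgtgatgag
near D2023.3, chrV:11801591-11801741: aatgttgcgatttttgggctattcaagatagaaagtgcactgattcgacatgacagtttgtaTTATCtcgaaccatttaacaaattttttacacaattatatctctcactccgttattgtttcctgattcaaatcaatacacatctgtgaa
mec-3 and ugt-43, chrIV:10462996-10463146: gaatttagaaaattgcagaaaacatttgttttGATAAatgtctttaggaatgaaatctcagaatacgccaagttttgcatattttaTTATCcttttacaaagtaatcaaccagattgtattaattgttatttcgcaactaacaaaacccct
Y116F11B.6 and Y116F11B.7, chrV:19846435-19846585: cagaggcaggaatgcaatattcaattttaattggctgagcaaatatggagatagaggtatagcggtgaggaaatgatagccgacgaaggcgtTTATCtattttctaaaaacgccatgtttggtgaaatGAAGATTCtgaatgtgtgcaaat
nhr-6, chrIII:3571505-3571655: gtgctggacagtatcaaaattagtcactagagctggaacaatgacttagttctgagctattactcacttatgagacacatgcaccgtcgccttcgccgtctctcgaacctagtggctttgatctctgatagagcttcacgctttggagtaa
The last pair are sites outside repeated sequence at which a mutant HCF-1 peak was called in both germline-less settings.
hsp-16.2 and hsp-16.41, chrV:1805017-1805167: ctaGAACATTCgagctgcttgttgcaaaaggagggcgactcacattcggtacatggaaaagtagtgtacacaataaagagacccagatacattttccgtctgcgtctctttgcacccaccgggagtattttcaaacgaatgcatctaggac
near K08B12.3, chrV:6240892-6241042: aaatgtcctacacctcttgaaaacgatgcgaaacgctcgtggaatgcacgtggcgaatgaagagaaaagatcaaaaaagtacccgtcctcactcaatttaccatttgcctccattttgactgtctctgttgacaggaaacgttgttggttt

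The sites were narrower and weaker than three-factor sites in the lists that chose them, which is given as a description. Their median width was 363 bp against 618 bp. HCF-1 fold enrichment, the authors' ratio of the read pileup at the summit to the local background, had a median of 1.81 (range 1.11 to 4.25) against 2.64. A fold of 2 or more was reached by 30.4% of the sites and by 76.4% of three-factor sites. HDA-1 fold was closer, with a median of 2.17 (1.28 to 15.95) against 2.86. HDA-1 covered nearly the whole HCF-1 peak, with a median coverage of 98.8%, and the HCF-1 and HDA-1 summits lay a median of 57 bp apart, against 27 bp at three-factor sites.

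**Figure D1:**
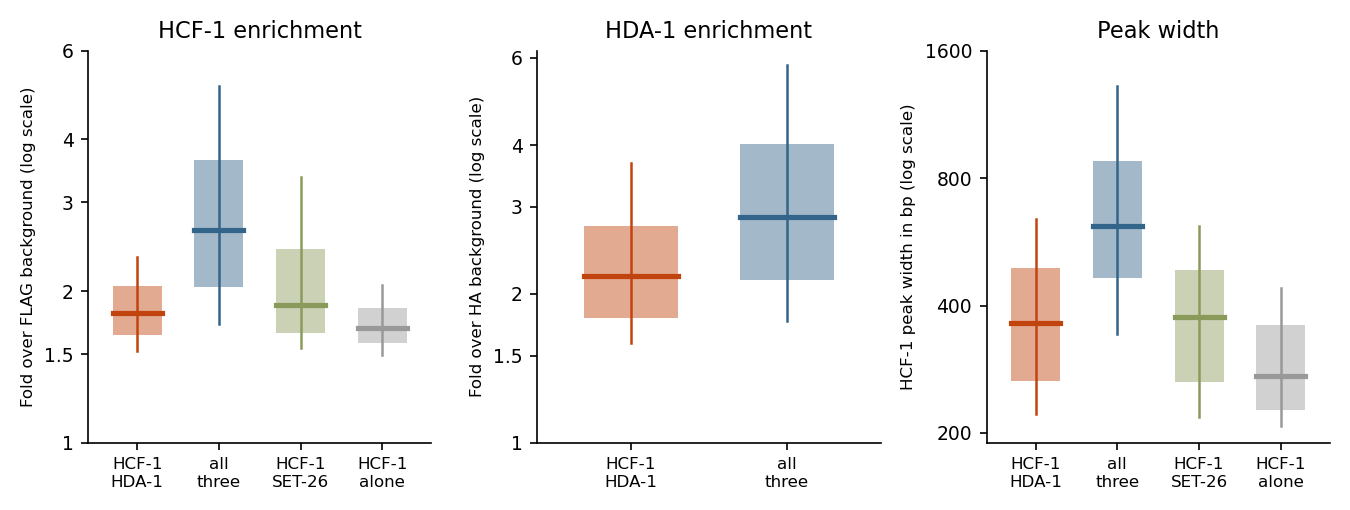
HCF-1 and HDA-1 fold enrichment (log axes) in the glp-1(e2141) lists by class of autosomal HCF-1 peak. Boxes span the 25th to 75th percentile with the median as a line and whiskers the 10th to 90th percentile. The sites without SET-26 sit at a median HCF-1 fold of 1.81 against 2.64 for three-factor sites, and the values were used to call the classes.

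Most sites lay well away from SET-26. The gap to the nearest SET-26 peak had a median of 2898 bp and ranged from 12 to 170675 bp. It was over 10000 bp for 337 sites (23.1%) and at most 500 bp for 210 sites (14.4%). At the edge of the rule, the closest sites inside had gaps of 12, 28 and 39 bp, and the three-factor sites just outside overlapped SET-26 by 4, 6 and 24 bp. The smallest HDA-1 overlaps among the sites were 9, 10 and 14 bp. The HDA-1 peak of a site can reach further than the site: at 123 sites (8.41%) it also overlapped a SET-26 peak, and there the median HDA-1 fold was 4.17 against 2.104 at the others. The 1462 sites rested on 1382 distinct HDA-1 peaks.

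Chromosome V held more of these sites than the other autosomes. They made up 31.2% of HCF-1 peaks there (514 of 1645, 29.0 to 33.5%), 20.4% on IV, 16.5% on II, and 8.79% and 8.60% on I and III. HCF-1 peaks with SET-26 and without HDA-1 had the opposite order, with 15.2% on I, 16.1% on III and 5.53% on V. V is the autosome richest in large gene families such as chemoreceptors and nuclear hormone receptors. When each chromosome was split into 3 equal lengths, 58.3% of the sites (55.7 to 60.8%) lay in the outer parts, against 51.1% (49.8 to 52.4%) of three-factor sites. The share was 56.98% (53.9 to 60.01%) for HCF-1 peaks with SET-26 and without HDA-1. For HCF-1 peaks with neither it was 59.2% (54.7 to 63.5%). Both intervals overlap that of the sites, so the outer position was not particular to them.

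**Figure D2:**
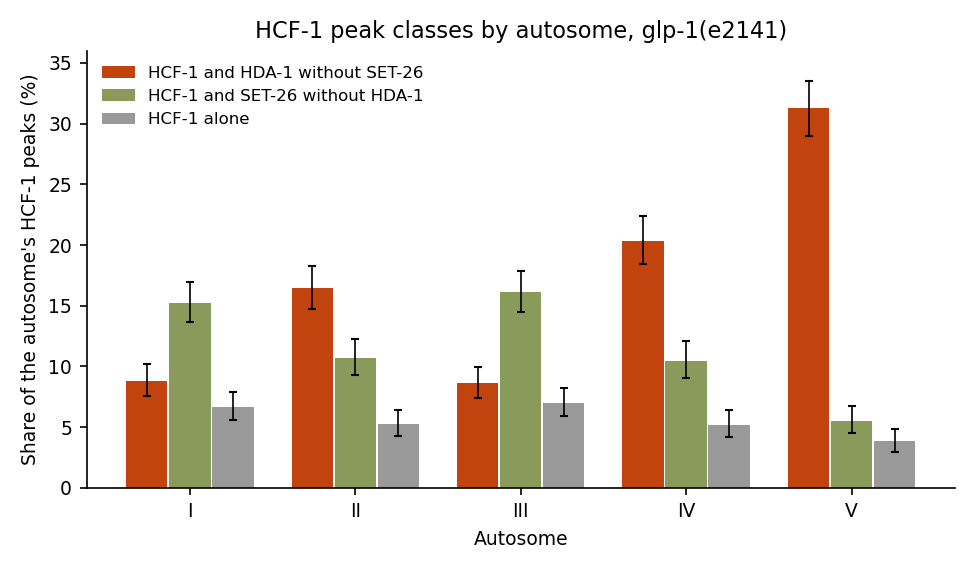
Percent of the HCF-1 peaks of each autosome in glp-1(e2141) worms that fall in each class, with exact 95% intervals. The class without SET-26 is 31.2% on V and under 9% on I and III.

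The sites were less often at promoters than three-factor sites. The promoter window of a protein-coding gene (2000 bp before its start and 500 bp after it) was overlapped by 747 sites, 51.1% (48.5 to 53.7%), against 69.5% of three-factor sites, a difference of -18.4 points (-21.2 to -15.6). The summit lay within 500 bp upstream of a start at 19.4% of the sites and 34.9% of three-factor sites. It was more than 2000 bp from any start at 40.5% and 26.5%. By the annotation at the summit, 56.6% of the sites were intergenic, 24.5% in introns, 8.89% in coding exons, 3.21% in 5′ UTRs and 1.85% in 3′ UTRs. The coding exon share was 6.06% and the 5′ UTR share 5.73% among three-factor sites.

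A small set of sites lay in repeated or non-coding RNA genes. Genes for tRNAs overlapped 47 sites (3.21%, against 2.57% of three-factor sites), piRNA genes 38 (2.60% against 1.43%), snoRNA genes 7 (0.479% against 2.05%) and rRNA genes 17. These 17 were all of the autosomal HCF-1 peaks at rRNA genes. None of the 5793 three-factor sites lay at one, which allows a share of up to 0.0637%. At 62 sites the peak lay at an rRNA gene or at least 50% of its 32-base stretches occurred again in the reference, so reads there cannot be placed on 1 copy.

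The rRNA genes gave the sites with the highest read pileup. The array of 5S rRNA and SL1 spliced-leader genes at chrV:17115777-17131533, whose transcripts go into ribosomes and onto the 5′ ends of worm mRNAs, held 12 sites, among them the 8 with the highest HCF-1 significance. Their HCF-1 fold was modest, 1.57 to 2.06, and the pileup was 1686 to 2953 against a median of 138 at sites outside both arrays. The nearest SET-26 peak was 148707 bp or more away. HCF-1 and HDA-1 peaks were called at all 12 in each mutant list, and no SET-26 peak in any list. Median HCF-1 fold over the 12 was 3.01 in control and 1.49 in set-26 mutants in glp-1(e2141), and 2.67 and 1.30 with glp-1 RNAi. Median HDA-1 fold was 3.03 in control, 2.44 in set-26 and 3.10 in hcf-1 mutants with glp-1 RNAi.

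The 18S and 26S rDNA at the end of chromosome I, chrI:15060416-15066635, held 5 more sites, with pileups of 11041 to 18305. HCF-1 fold was 1.11 to 1.21 and HDA-1 fold 4.51 to 5.23 in the lists of the rule. All mutant HCF-1 and HDA-1 lists had peaks at all 5, and no SET-26 list did. Median HCF-1 fold was 2.004 in control and 2.006 in set-26 mutants in glp-1(e2141), and 2.44 and 1.89 with glp-1 RNAi. Except at the F31C3.6 promoter, these HCF-1 values were the same at each site, so the medians rest on 1 measurement per genotype and setting. At F31C3.6 they were 1.76 in control and 1.61 in set-26 mutants in glp-1(e2141), and 1.87 and 1.60 with glp-1 RNAi. HDA-1 fold with glp-1 RNAi was 6.97 in control, 5.45 in set-26 mutants and 7.77 in hcf-1 mutants. Each of these HDA-1 values was the same at all 5 sites, so they count as 1 measurement per genotype. The lowest was without SET-26, as at the 5S array, where control (3.03) and hcf-1 mutants (3.10) were nearly equal.

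SET-26 stayed rare at the sites in lists that did not choose them. Of the 1462 sites, 173 (11.8%, 10.2 to 13.6%) had a SET-26 peak in the glp-1 RNAi control, where 73.4% of all autosomal HCF-1 peaks did. The share was 6.36% in wild type (background 65.2%), 3.08% in the L4440 control (background 59.4%), 4.99% in hcf-1 mutants with glp-1 RNAi (background 64.1%) and 3.28% in hcf-1 mutants on L4440 (background 59.0%). The background holds mostly peaks with SET-26 by the rule. HCF-1 peaks with neither other factor lacked SET-26 by the rule too, and had nearer shares. In the same order of lists these were 18.5%, 16.5%, 10.9%, 9.26% and 9.46%. Of the sites, 1199 had no SET-26 peak in any of the 5 lists and 9 had 1 in all 5. The median SET-26 fold where a peak was called was 1.62 to 1.78. A low share is in part fixed by the rule, since these lists measure the same protein in other worms, and the peaks can be wider than the site and reach it from a neighbour.

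In wild type worms with a germline, HDA-1 was called at most of the sites and HCF-1 at few. HDA-1 peaks overlapped 797 sites, 54.5% (51.9 to 57.1%), against a background of 60.8% of all autosomal HCF-1 peaks. HCF-1 peaks overlapped 217 sites, 14.8% (13.1 to 16.8%), against a background of 58.0%, and 70.6% of three-factor sites. In L4440 controls HDA-1 was at 652 sites (44.6%, background 58.8%) and HCF-1 at 134 (9.17%, background 48.7%). In germline-less glp-1 RNAi controls HDA-1 was at 1246 sites (85.2%, background 80.5%) and HCF-1 at 741 (50.7%, background 80.2%). Fewer binding cells and less binding per cell cannot be told apart in whole worms.

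By promoter window, 770 protein-coding genes were assigned a site, 4.47% of the 17242 on the autosomes. Of these genes, 578 (75.1%) had no SET-26 peak anywhere in the window and 177 also had a three-factor site. The 28 gene lists described next were chosen with earlier results of these data known, and are given by count beside that 4.47%.

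Genes of the intestine, the main metabolic and digestive tissue of the worm, and of lipid and toxin handling were counted often. Of 13 intestinal genes, 6 had a site (46.2%, 19.2 to 74.9%): act-5 (actin of the intestinal microvilli), asp-1 and cpr-1 (digestive proteases), elt-7 (a GATA factor of intestinal cells), mtl-1 (a metallothionein that binds heavy metals) and pho-1 (an acid phosphatase). Of 180 detoxification genes, 31 had a site (17.2%, 12.01 to 23.5%), among them 16 UDP-glucuronosyltransferases, which make foreign compounds soluble, and 11 cytochrome P450s, which oxidise them. Of these P450s, 6 were of the cyp-13A group. Of 82 lipid genes, 14 had a site (17.1%, 9.66 to 26.98%). They included the Δ9 desaturases fat-5 and fat-6, the fatty acid elongases elo-2 and elo-5, the lipid regulator sbp-1 (the worm SREBP) and the peroxisomal thiolase daf-22. Three-factor sites lay at 48 of the 82 lipid genes (58.5%), against 27.1% of all autosomal protein-coding genes, so lipid genes were frequent for both kinds of site. They lay at 54 of the 180 detoxification genes and 5 of the 13 intestinal genes. Of the genes with a site, 8 of 14 lipid, 27 of 31 detoxification and 5 of 6 intestinal genes had no SET-26 peak in the window.

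Nuclear hormone receptors and secreted defence proteins were also above 4.47%, while the intervals of the other lists here include it. Nuclear hormone receptors, ligand-gated transcription factors that are greatly expanded in nematodes, had a site at 30 of 246 genes (12.2%, 8.38 to 16.9%), including the NR4A receptor nhr-6. This list had three-factor sites at 75 genes (30.5%). Factors of the bHLH, bZIP, GATA and forkhead families had 6 of 64 (9.38%, 3.52 to 19.3%): elt-7, fkh-6, sbp-1, unc-130, zip-5 and zip-10. C-type lectins, lysozymes and related defence proteins had 24 of 279 (8.60%, 5.59 to 12.5%), 16 of them lectins, and this list had three-factor sites at only 16 genes. Histone genes had 5 of 68 (7.35%, 2.43 to 16.3%), homeobox factors 4 of 65 (6.15%, 1.70 to 15.01%) and cuticle collagens 9 of 145 (6.21%, 2.88 to 11.5%).

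Several lists had no site. No gene was assigned a site among 80 cytosolic ribosome genes (exact upper limit 4.51%) and 70 mitochondrial ribosome genes (5.13%). The same held for 48 genes of oxidative phosphorylation (7.40%), 67 of splicing and 3′ end processing (5.36%) and 33 of the proteasome (10.6%). The counts were also 0 of 38 synaptic and neuron genes (9.25%), 0 of 18 germline genes (18.5%) and 0 of 10 heterochronic genes (30.8%). All of these upper limits are above the background of 4.47%, so the zeros allow it, narrowly so for the cytosolic ribosome. Among the housekeeping lists most genes had three-factor sites, except for the mitochondrial ribosome with 34 of 70 (48.6%). Examples were 72 of the 80 cytosolic ribosome genes, 31 of the 48 oxidative phosphorylation genes and 28 of the 33 proteasome genes. Chromatin regulators had 1 site gene of 89, let-418 (the Mi-2 subunit of NuRD), and 58 three-factor genes. Longevity and insulin signalling had pqm-1 alone of 29, a zinc finger factor of stress and metabolism, and 22 three-factor genes. Chemoreceptors had 27 of 1331 (2.03%) and 34 with three-factor sites.

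**Figure D3:**
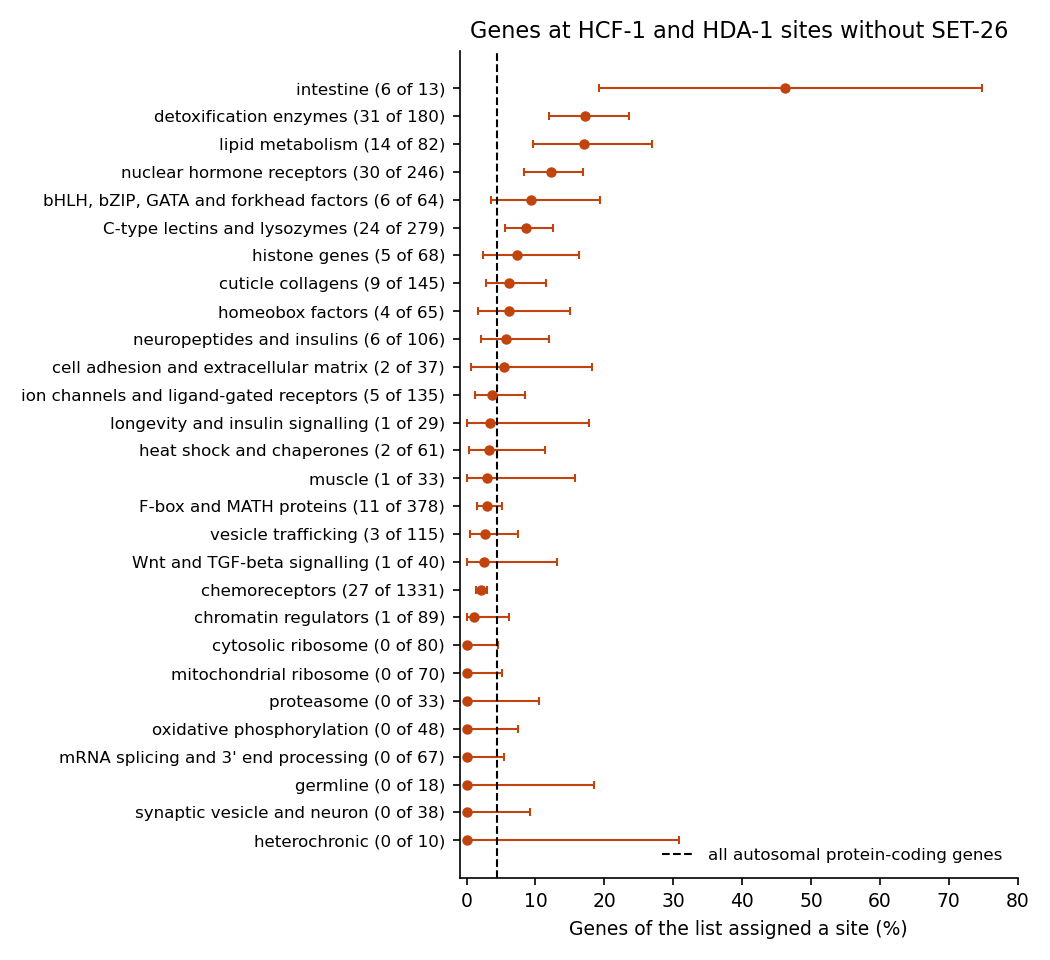
Percent of the genes of each list with a site in the promoter window, with exact 95% intervals. The line is the 4.47% of all autosomal protein-coding genes, and intestine (46.2%), detoxification (17.2%) and lipid metabolism (17.1%) lie to its right.

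Outside the arrays, the strongest HCF-1 peaks were single promoters and distal sites on several chromosomes, and their values are given because they were chosen for strength. The site upstream of zip-5, a bZIP transcription factor, at chrV:13262899-13263387, had HCF-1 fold 3.46 and HDA-1 fold 6.39, with SET-26 11320 bp away. HCF-1 against H3 was 3.89 in the glp-1(e2141) control and 3.00 with glp-1 RNAi, and no peak was called in either set-26 mutant list. HDA-1 was called at this site in all mutant lists. With glp-1 RNAi it was 5.67 in control, 3.64 in set-26 mutants and 3.42 in hcf-1 mutants, and on L4440 it was 3.47, 1.45 and 2.54. The zip-5 site thus had an HDA-1 peak without a called HCF-1 peak in set-26 mutants, and the other 5 sites of this group, whose sequences are shown above, did the same with glp-1 RNAi.

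The intergenic site of mec-3 and ugt-43, chrIV:10462596-10463632, lay between a LIM homeobox gene of touch neurons and a UDP-glucuronosyltransferase gene. HCF-1 fold was 3.19 and HDA-1 fold 5.16, and HDA-1 with glp-1 RNAi was 3.71 in control, 1.93 in set-26 and 2.14 in hcf-1 mutants. At nhr-6, chrIII:3571351-3571732, the same HDA-1 values were 3.20, 1.78 and 2.25. At the F49C12.6 promoter, chrIV:9311038-9311767, within an intron of F49C12.7, they were 3.30, 1.83 and 1.73. With glp-1 RNAi each of these 3 sites kept an HDA-1 peak at a lower fold in both mutants. On L4440 none had an HDA-1 peak in set-26 mutants, and in hcf-1 mutants it was 1.81 at mec-3 (control 2.47), 2.09 at nhr-6 (control 1.64) and not called at F49C12.6 (control 1.56). The site near D2023.3, chrV:11801004-11801987, gave 3.91, 2.22 and 2.38 with glp-1 RNAi, and the shared promoter of Y116F11B.6 and Y116F11B.7, chrV:19846349-19846695, gave 3.38, 1.88 and 1.84. Control was above both mutants at these 2 sites with glp-1 RNAi, but on L4440 the D2023.3 site had 1.95 in control and 2.12 in hcf-1 mutants. The largest HCF-1 fold of all sites, 4.25, lay at -3773 bp from the start of T23F4.2 at chrII:1159641-1160192, and HCF-1 against H3 there was 3.26 in control and 1.85 in set-26 mutants in glp-1(e2141). This T23F4.2 site was singled out after its values were seen.

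The highest HDA-1 folds came from sites close to SET-26 peaks. The 5 highest were 15.95 in an intron of ppfr-1 (a regulatory subunit of protein phosphatase 4), 15.6 in an intron of K10C3.4, 11.9 at the non-coding RNA linc-151, 11.4 upstream of CC8.2 and 11.3 between cpr-9 (a cathepsin B-like protease) and gcy-33 (a guanylyl cyclase of gas-sensing neurons). Their gaps to SET-26 were 48, 160, 348, 352 and 162 bp. Of the 65 sites with an HDA-1 fold of 5 or more, 35 lay within 500 bp of a SET-26 peak. At the cpr-9 and gcy-33 site, chrV:12002747-12003595, HDA-1 with glp-1 RNAi was 10.4 in control, 2.18 in set-26 mutants and 6.82 in hcf-1 mutants.

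Outside the arrays, the site farthest from SET-26, by 170675 bp, lay at ZK262.2 and txt-8, chrV:18412349-18412664, with HCF-1 fold 1.37 and HDA-1 fold 2.49. HDA-1 there with glp-1 RNAi was 1.75 in control, 1.68 in set-26 and 2.60 in hcf-1 mutants. The next was at fat-5. Its site at chrV:17723378-17723902, with its summit at -1274 bp from the start of this Δ9 desaturase, was 132891 bp from the nearest SET-26 peak. HCF-1 fold was 2.23 and HDA-1 fold 3.46. HDA-1 with glp-1 RNAi was 4.69 in control, 1.88 in set-26 and 2.63 in hcf-1 mutants. The other Δ9 desaturase site, at fat-6, chrIV:11916678-11917200, was only 425 bp from SET-26 and gave 5.21, 2.49 and 2.12. At elo-5, an elongase of branched-chain fatty acids, chrIV:5376870-5377682, HDA-1 with glp-1 RNAi was 2.46 in control and 1.75 in set-26 mutants, with no hcf-1 mutant peak. On L4440 the hcf-1 mutant list had HDA-1 at elo-5 (1.69, control 1.79) and fat-6 (1.90, control 1.67) and none at fat-5 (control 1.85). Which of the lipid gene sites had HDA-1 in hcf-1 mutants thus differed between the settings.

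The intestinal and detoxification promoters showed the same spread. At mtl-1, chrV:6691732-6692330, HCF-1 fold was 2.20 and HDA-1 fold 5.25. HDA-1 with glp-1 RNAi was 4.32 in control, 2.27 in set-26 and 3.56 in hcf-1 mutants, and HCF-1 in glp-1(e2141) was 3.58 in control and 1.43 in set-26 mutants. At act-5, chrIII:13607787-13608263, HDA-1 was 1.87 in control, had no peak in set-26 mutants and was 1.48 in hcf-1 mutants. Thus mtl-1 had HDA-1 peaks in both mutants and act-5 in 1 of them. At ugt-37, chrV:7145209-7145799, HCF-1 in glp-1(e2141) was 2.58 in control and 1.49 in set-26 mutants, while HDA-1 was 2.58 in control and 1.78 in hcf-1 mutants with no set-26 mutant peak.

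HCF-1 was called at few of the sites in germline-less set-26 mutants. A site is called kept where both the control list and the mutant list of a setting had a peak on it. In glp-1(e2141), 1433 sites had a control peak against H3, which comes from the same HCF-1 library as the rule, and at 142 of all sites (9.71%) this peak also covered a three-factor site. Of these, 256, or 17.9% (15.9 to 19.9%), had a peak in set-26 mutants, where the background of all autosomal HCF-1 peaks was 32.7%. With glp-1 RNAi, a separate library, 21 of 741 were kept, 2.83% (1.76 to 4.30%), against a background of 10.1%. On L4440, 54 of 134 were kept, 40.3% (31.9 to 49.1%), against a background of 54.7%. Three-factor sites were kept more often in all 3 settings, at 43.8%, 12.8% and 57.8%. The sites minus three-factor sites gave -25.95 points (-28.2 to -23.5) in glp-1(e2141), -10.015 (-11.4 to -8.31) with glp-1 RNAi and -17.5 (-25.6 to -8.88) on L4440.

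HCF-1 peaks with SET-26 and without HDA-1 were kept less often than the sites in glp-1(e2141). Their shares were 2.62% in glp-1(e2141) and 0.840% with glp-1 RNAi, below those of the sites by 15.2 points (13.01 to 17.5) and 1.99 points (0.679 to 3.52). The second difference rested on repeats, since without repeated sequence and rRNA genes 4 of 691 sites (0.579%) were kept with glp-1 RNAi, which is below 0.840%. On L4440 their share was 44.7%, and the difference from the sites had an interval that spans 0 (-13.2 to 4.81 points). HCF-1 peaks with neither SET-26 nor HDA-1 were kept at 20 of 440 (4.55%) in glp-1(e2141), also below the sites. With glp-1 RNAi they were kept at 0 of 177, which allows up to 2.06%, and on L4440 at 40 of 109 (36.7%). The mutant libraries held more factor tags than their controls in each setting, 69.0 against 55.9 M in glp-1(e2141), 35.2 against 27.6 M with glp-1 RNAi and 37.9 against 31.7 M on L4440. The mutant lists were nonetheless shorter, with 5183 against 13024, 1267 against 10618 and 3703 against 7246 peaks.

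**Figure D4:**
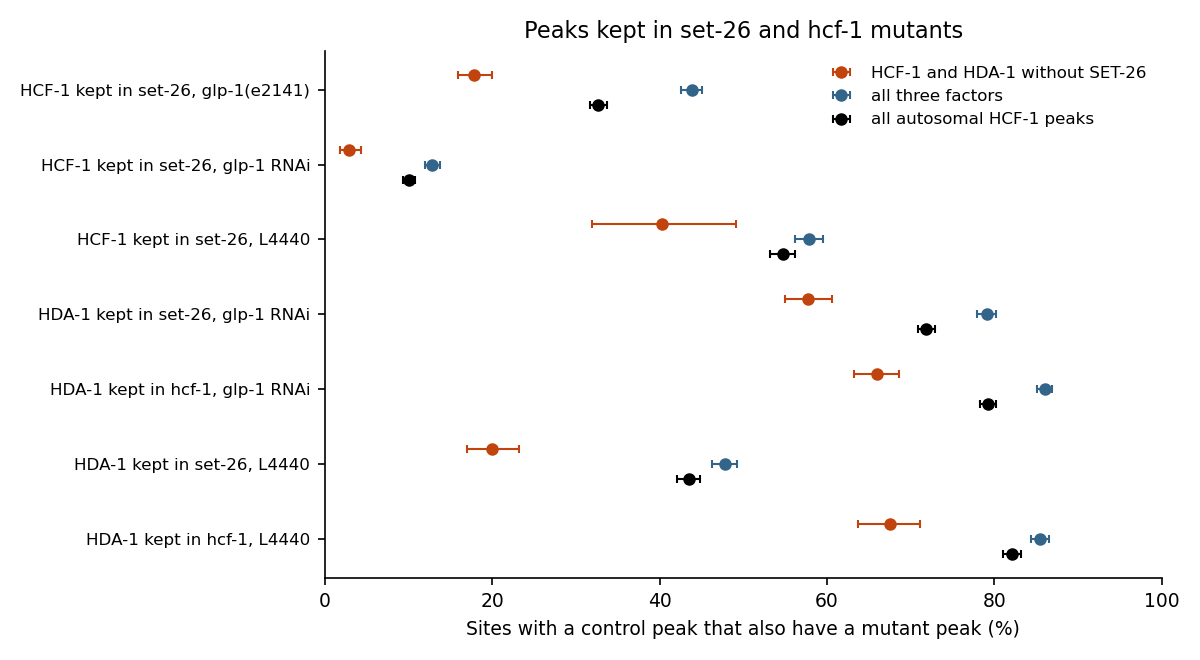
Percent of HCF-1 peaks with a control peak against H3 that also had a mutant peak, for HCF-1 (3 settings) and HDA-1 (4 comparisons), by class, with exact 95% intervals. The sites without SET-26 lie below three-factor sites in all 7 comparisons, for example 57.8% against 79.1% for HDA-1 in set-26 mutants with glp-1 RNAi.

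The lower HCF-1 share went with the lower strength of the sites. All autosomal HCF-1 peaks were ranked by −log10 q (the significance of the peak) in the list of the rule and cut into 5 groups of equal size. From weakest to strongest, HCF-1 was kept in glp-1(e2141) at 12.4, 15.5, 21.8, 46.2 and 87.5% of the sites and at 13.2, 17.2, 27.7, 46.2 and 75.4% of three-factor sites. When three-factor sites were given the strengths of the sites, their share was 19.8% against 17.9% in glp-1(e2141), 2.23% against 2.83% with glp-1 RNAi and 39.8% against 40.3% on L4440. With strength taken from the control list of the same setting the values were 17.9% against 17.9%, 2.18% against 2.83% and 38.2% against 40.3%. The agreement of these averages did not hold in each strength group. By the control list, HCF-1 in glp-1(e2141) was kept at 8.42, 17.9, 34.3, 37.7 and 29.7% of the sites, from weakest to strongest, and at 9.09, 13.2, 26.02, 51.6 and 77.97% of three-factor sites. The strongest group then held 64 sites, with a difference of -48.3 points (-58.3 to -36.01) from three-factor sites.

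Repeats made up most of the sites kept with glp-1 RNAi. With glp-1 RNAi, 17 of the 21 sites kept were in repeated sequence or rRNA genes, where 17 of 50 were kept, and elsewhere 4 of 691 were kept. Without them the share was 0.579% with glp-1 RNAi and 29.0% on L4440, against 1.62% and 35.5% for three-factor sites at like strength. It was 17.2% against 19.1% in glp-1(e2141). Among the strongest of the 5 groups, 13 of the 16 sites in glp-1(e2141) and 13 of the 14 with glp-1 RNAi were repeats.

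**Figure D5:**
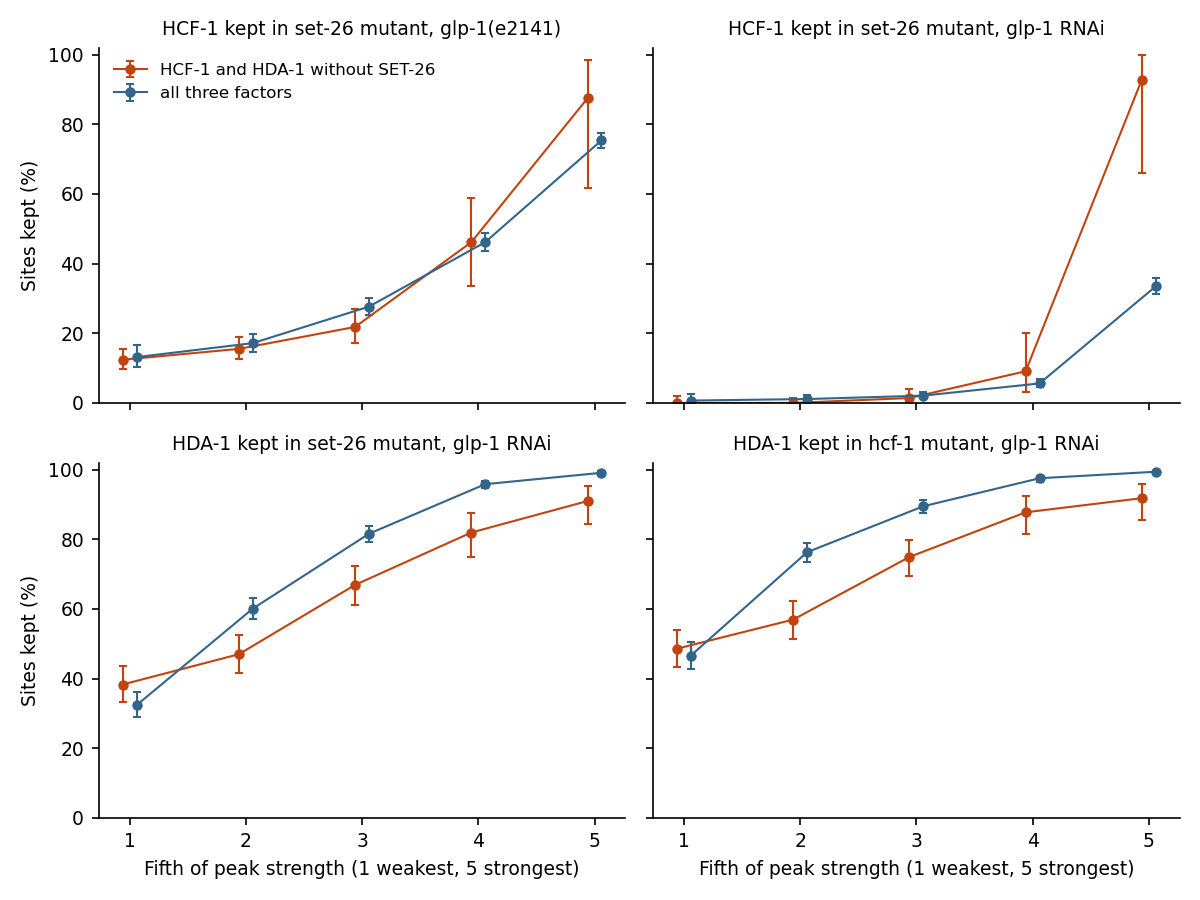
Percent of sites with a mutant peak in 5 groups of rising −log10 q, taken from the list of the rule, for sites without SET-26 and three-factor sites, in 4 panels. For HCF-1 in glp-1(e2141) the shares go from 12.4 and 13.2% to 87.5 and 75.4% with this ranking, and for HDA-1 with glp-1 RNAi three-factor sites are the higher in the upper 4 groups.

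Of 737 sites with an HCF-1 control peak in both germline-less settings, 20 (2.71%) were kept in both, 20.5% in glp-1(e2141) alone, 1 with glp-1 RNAi alone and 565 (76.7%) in neither. Of 5296 three-factor sites, 11.6% were kept in both, 35.2% in glp-1(e2141) alone, 1.23% with glp-1 RNAi alone and 51.9% in neither. Only 3 of the 20 sites kept in both were outside repeats. The first was the region between hsp-16.2 and hsp-16.41, small heat shock proteins transcribed away from each other, at chrV:1804192-1805941. HCF-1 there was 3.75 in control and 2.08 in set-26 mutants in glp-1(e2141), and 2.43 and 1.63 with glp-1 RNAi. HDA-1 with glp-1 RNAi was 7.34 in control, 5.41 in set-26 and 6.02 in hcf-1 mutants. This hsp-16 site was also 1 of the 9 with a SET-26 peak in all 5 other lists, at folds of 1.66 to 2.76, although its nearest SET-26 peak in the list of the rule was 14952 bp away. The other 2 sites also had a SET-26 peak in the glp-1 RNAi control, at 1.47 at elt-7 and 1.49 near K08B12.3.

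The elt-7 site, chrV:4770624-4771005, with its summit in a coding exon 113 bp past the start of this intestinal GATA factor, had HCF-1 of 2.76 in control and 1.93 in mutants in glp-1(e2141) and 2.03 and 1.70 with glp-1 RNAi. The site near K08B12.3, chrV:6240663-6241277, had 3.29 and 1.56, and 2.52 and 1.64. At all 3 unique sites the HCF-1 fold was lower in the mutant in both settings. The same held over all sites kept: the median fold was 2.20 in control and 1.51 in mutants in glp-1(e2141), where 15 of 256 sites were higher in the mutant, and 2.44 and 1.41 with glp-1 RNAi, where none of the 21 were. On L4440 it was 2.51 and 1.84, with 2 of 54 higher. At kept three-factor sites the medians were 4.57 and 1.65 in glp-1(e2141), 5.70 and 1.78 with glp-1 RNAi and 3.70 and 2.23 on L4440.

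HDA-1 was called at most of the sites in both mutants with glp-1 RNAi. Of 1246 sites with a control HDA-1 peak, 720 had a peak in set-26 mutants, 57.8% (55.0 to 60.5%), against a background of 71.9%, and 822 in hcf-1 mutants, 65.97% (63.3 to 68.6%), against a background of 79.2%. On L4440, 130 of 652 had a peak in set-26 mutants, 19.9% (16.9 to 23.2%), against a background of 43.5%, and 440 in hcf-1 mutants, 67.5% (63.7 to 71.1%), against a background of 82.1%. The set-26 mutant list on L4440 was short as a whole, with 3741 peaks against 8253 in control, from 64.5 and 71.5 M factor tags. In set-26 mutants with glp-1 RNAi HDA-1 was thus kept at a larger share of its control sites than HCF-1. With glp-1 RNAi the HDA-1 libraries held 53.3 M factor tags in control, 56.8 M in set-26 and 51.6 M in hcf-1 mutants.

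HDA-1 was kept less often than at three-factor sites in all 4 comparisons. With glp-1 RNAi three-factor shares were 79.1% in mutants of set-26 and 86.003% in those of hcf-1, and the sites minus these gave -21.3 (-24.3 to -18.4) and -20.03 (-22.9 to -17.3) points. On L4440 they were 47.8% and 85.5%, with differences of -27.8 (-31.1 to -24.3) and -18.01 (-21.8 to -14.4) points. Unlike HCF-1, a part of this stayed when three-factor sites were given the HDA-1 strengths of the sites: the differences were then -7.73 and -9.93 points with glp-1 RNAi and -12.8 and -8.97 points on L4440. With strength taken from the control list they were -8.79 and -11.1 points with glp-1 RNAi and -6.15 and -5.08 points on L4440. By strength group, HDA-1 was kept in set-26 mutants with glp-1 RNAi at 38.3, 46.99, 66.9, 81.9 and 91.0% of the sites and 32.4, 60.1, 81.6, 95.8 and 99.1% of three-factor sites. In the weakest group the difference had an interval that spans 0 (-0.183 to 12.1 points), and by the control list the shares there were 26.8% and 31.5%.

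The set-26 and hcf-1 mutants are compared with 1 shared control library in each setting. With glp-1 RNAi, 632 of the 1246 sites had an HDA-1 peak in both, 88 in set-26 mutants alone, 190 in hcf-1 mutants alone and 336 in neither. On L4440 the counts were 126, 4, 314 and 208 of 652. These joint counts were made for the sites alone, so no background stands beside them. Where HDA-1 was kept its median fold was 2.51 in control and 1.83 in set-26 mutants with glp-1 RNAi, with 63 of 720 sites higher in the mutant, and 2.44 and 1.91 in hcf-1 mutants, with 145 of 822 higher. On L4440 the medians were 2.47 and 1.65 in set-26 mutants, with 9 of 130 higher, and 1.86 and 1.82 in hcf-1 mutants, with 185 of 440 higher. The drop in fold at kept sites was thus smallest in hcf-1 mutants with a germline. Three-factor sites had it smallest there too, with a median ratio of mutant to control of 0.917. Their other ratios were 0.824 in hcf-1 and 0.725 in set-26 mutants with glp-1 RNAi, and 0.641 in set-26 mutants on L4440.

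HDA-1 was called in control and both mutants in both settings at 123 sites, 100 of them outside repeats, again counted for the sites alone. The most significant HDA-1 peaks among these 100 were at 3 neighbouring intron sites of pkg-2, a cGMP-dependent protein kinase, which share 1 HDA-1 peak, and at cpr-9 and gcy-33. The first pkg-2 site, chrIV:8528247-8528906, had HDA-1 of 10.1 in control, 6.48 in set-26 and 7.44 in hcf-1 mutants with glp-1 RNAi. At the other end, HDA-1 with glp-1 RNAi was 10.5 in control with no peak in either mutant in an intron of hlh-30, the worm TFEB factor of autophagy and lysosome genes, at chrIV:4028851-4029155. At crh-2, a CREB-related factor, chrII:5186937-5187376, it was 3.61 in control with no peak in either mutant with glp-1 RNAi, while on L4440 it was called in hcf-1 mutants (1.68) and not in control. The hlh-30 site lay 176 bp from SET-26 and the crh-2 site 3979 bp.

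HCF-1 and HDA-1 parted at most sites of set-26 mutants with glp-1 RNAi. Of 684 sites with control peaks of both, 429 (62.7%, 59.0 to 66.4%) had HDA-1 alone, 21 had both and 234 had neither. The count with HCF-1 alone was 0, which allows up to 0.538%. At three-factor sites the same counts were 3446, 639, 937 and 39 of 5061, so that HDA-1 alone was also the most frequent outcome there, at 68.1%. On L4440 only 82 sites could be asked: 24 had both, 22 HCF-1 alone, 4 HDA-1 alone and 32 neither. The order of HDA-1 alone and HCF-1 alone was thus not the same in the 2 settings.

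The sequence under the summits held GATA letters more often than that of other HCF-1 peaks. GATAA, searched on both strands and so also as TTATC, occurred within 75 bases of the summit of 677 sites, 46.3% (43.7 to 48.9%). The share was 34.9% at three-factor sites, 35.5% at HCF-1 with SET-26 and no HDA-1, 36.99% over all autosomal HCF-1 peaks and 38.02% in windows of the same length just upstream of all autosomal protein-coding starts. The sites were above three-factor sites by 11.4 points (8.56 to 14.2). HDA-1 peaks that overlapped neither other factor came closest, with 42.8% (40.3 to 45.2%) of 1630. At least 2 matches were present at 13.7% of the sites and 8.91% of three-factor sites.

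The GATAA share was above that of three-factor sites at each base composition, but not always beyond the intervals. Peaks were cut into 5 groups by GC content, and from lowest to highest the sites had 52.6, 55.5, 47.9, 40.9 and 29.2% with GATAA against 46.5, 44.1, 42.4, 32.2 and 16.6% of three-factor sites. The exact intervals overlapped in the lowest group (46.2 to 58.9% against 43.4 to 49.7%) and the middle group (42.7 to 53.2% against 39.5 to 45.4%). The share was 49.1% against 35.6% in promoter windows and 43.4% against 33.4% outside them. Of 9 sites at genes of the intestine list, 6 had a match. In the sequences printed above, the F49C12.6 site and the mec-3 and ugt-43 site have 2 matches each, and those near D2023.3 and at Y116F11B.6 have 1, while zip-5 and nhr-6 have none. A match is a string of letters and no measure of binding.

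Other motifs differed less or in the other direction. The E-box CACGTG was in 4.79% (3.75 to 6.01%) of the sites and 3.23% (2.79 to 3.72%) of three-factor sites. GAGAGAGA was in 2.94% (2.14 to 3.94%) and 7.44% (6.78 to 8.15%), and in 2.20% of the windows upstream of all starts. TTTCGCG was in 0.889% and 1.88%. GAANNTTC, present at the hsp-16.2 and hsp-16.41 site and at the Y116F11B.6 site, was in 8.62% (7.23 to 10.2%) of the sites and 7.28% of three-factor sites. All were searched on both strands.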

How the data were processed

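CUT&RUN peak lists of HCF-1, HDA-1 and SET-26 were analysed. Per the labels and the study's methods, reads were trimmed with Trim Galore 0.6.5, aligned to WBcel235 (ce11) with Bowtie2 2.4.3, replicates merged with SAMtools, and peaks called with MACS2 2.1.4 (q-value limit 0.01, duplicates retained, the deeper library scaled down). The deposited tables give the signal as the read pileup at the summit, with reads counted singly and extended to 200 bp. They also give the authors' fold enrichment (the ratio of the pileup to the local background of the control) and the authors' −log10 q values. The values were used as deposited. The study's own differential test (DiffBind) needs reads and was not run. Second copies of the lists in another format were not used.

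Entries of 1 peak with several summits were counted once, with the summit of the highest −log10 q. Overlap was 1 bp or more. A site was kept if it overlapped a control peak and a mutant peak of the same setting, both against H3. SET-26 and HDA-1 lists in glp-1(e2141) share 1 HA background library. For HDA-1 in set-26 mutants the genotype label has 1 digit too many in the allele name, so the titles were used. Gene models came from Ensembl release 115 (protein-coding). Where several genes on 1 strand could take a site, the one with the nearest start did. Sequences are from RefSeq. Shares at like strength weight the three-factor share in each of 5 groups of −log10 q by the number of sites in it.

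Sites named were those with the highest HCF-1 −log10 q (8) or HDA-1 fold (5), kept or not kept in mutants (6, 6, 4 and 4), farthest from SET-26 (3), the 3 genes with the highest HCF-1 −log10 q in each list, and the site in most promoter windows; not all are printed. Several of these rules returned repeats, so they were applied again to unique sequence after the values were seen. Alternatives were another denominator, overlap, significance, fold, peak width and promoter window. The members and lists were chosen with earlier results of these data known. The scripts were tested on simulated data. Python 3.11.15, pandas 2.3.3, NumPy 2.4.6, SciPy 1.17.1, pysam 0.24.0 and Matplotlib 3.10.9 were used.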

Additional observations from a re-analysis of the deposited data

How the results depend on the processing

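No paired analysis was possible because peaks were called on merged replicates, and for the same reason no replicate could be left out. Of 99 alternative values, 72 stayed within their interval or within 1.5 times the count and 27 moved. Shares kept have no direction of their own, but the order of HDA-1 and HCF-1 in set-26 mutants on L4440 depends on the denominator. With all 1462 sites as the denominator, any mutant peak was counted, with or without a control peak. HCF-1 then had a mutant peak at 1.505% with glp-1 RNAi and 3.90% on L4440. HDA-1, in mutants of set-26 and then of hcf-1, had 1 at 50.6% and 58.1% with glp-1 RNAi and 9.10% and 37.1% on L4440. The last share includes 103 sites without a control peak. With at least 50% of the site covered, HCF-1 in glp-1(e2141) was 11.7% and HDA-1 49.04% and 57.3% with glp-1 RNAi and 13.2% and 55.5% on L4440. With −log10 q of 5 or more in both lists these were 13.6% for HCF-1 in glp-1(e2141), and 54.3% and 61.7% for HDA-1 with glp-1 RNAi. With peaks of at least 3-fold, 12 sites at 9 genes were left, 58.3% of them in promoter windows and 50% with GATAA. Of these, HCF-1 with glp-1 RNAi was kept at 0 of 9 (0%), HDA-1 at 100% in both mutants with glp-1 RNAi and 80% in hcf-1 mutants on L4440, and HCF-1 on L4440 gave no value. The promoter share was 38.5% with a window of 1000 bp upstream and 200 bp downstream and 48.5% by the summit. Without repeated sequence and rRNA genes, an alternative chosen after seeing the data, HCF-1 was kept at 0.579% with glp-1 RNAi and 29.0% on L4440 and HDA-1 in set-26 mutants on L4440 at 16.9%. Leaving out sites whose HDA-1 peak reaches SET-26, also chosen later, moved none. The causes were not tested. A missing peak says only that the threshold was not passed at this depth.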
